A study of Homo sapiens with 8 samples.

Results

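The control cells of the study are described here, from the 4 control arrays among its 8 Affymetrix PrimeView arrays. All arrays hold RNA of H1299, a widely used cell line of human lung carcinoma. In one set of arrays cells were transfected with short hairpin RNA (shRNA) against USF1, an E-box-binding transcription factor, and in the other with shRNA against UGT1A3, a UDP-glucuronosyltransferase. The USF1 set has 3 control arrays and 3 knockdown arrays, and the UGT1A3 set has 1 control array and 1 knockdown array. The members were every array labelled as a control, 3 from the USF1 set and 1 from the UGT1A3 set. The labels name what each control was made for and do not say which RNA, if any, the control cells received, so that any treatment common to all 4 is unknown here. Cells were grown in RPMI-1640 with fetal bovine serum. Nothing in the labels says that the 3 USF1 controls came from separate cultures, so the spread among them may be technical, and their number limits the precision.

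H1299 was derived from a lymph node metastasis of a lung carcinoma and is known for a spindle-shaped, mesenchymal form. Lung adenocarcinomas often keep markers of the airway and alveolar lining, such as the surfactant proteins and the transcription factor NKX2-1, while lines that have lost the epithelial state express vimentin and N-cadherin in place of E-cadherin. Cholesterol and fatty acid synthesis in such cells is set by the SREBP transcription factors, which the INSIG proteins hold in the endoplasmic reticulum with their escort SCAP when sterols are plentiful. When sterols are scarce, SREBP-2 raises nearly every enzyme of the cholesterol pathway together, and it also raises INSIG1 itself.

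The deposited log2 intensities of the UGT1A3 control had a median of 5.62 over probe sets with 1 gene symbol, and those of the USF1 controls had medians of 6.57 to 6.59. For this reason the arrays were compared by rank. The 44988 probe sets with 1 gene symbol were ranked within each array and given as percentiles, and each of 18132 genes was represented by the probe set with the highest percentile, counting both sets equally. A percentile orders probe sets by brightness, and probe sets bind with different efficiency, so the order of 2 genes is not an order of their RNA amounts. Genes with a mean percentile under 40 were called dim, which left 11411 genes. For differences, the ranks were mapped back to log2 through the mean sorted values of the 4 control arrays, and these values are called rank-matched log2 below. No test was made, because 1 side of the comparison has 1 array.

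The brightest genes were those of the protein synthesis machinery. Of the 20 genes with the highest mean percentile, 14 encode ribosomal proteins, led by RPS2 and RPL32, and 55 of the first 100 do so. The other 6 of the first 20 were EEF1A1, the elongation factor that brings tRNA to the ribosome, GAPDH of glycolysis, TPT1, NPM1, the actin-binding thymosin TMSB10 and the intermediate filament gene VIM. Of these 20 genes, 17 were read by probe sets that the array design marks as matching more than 1 transcript, and ribosomal protein genes have many near-identical pseudogenes, so the signal of single members is uncertain. All 43 measured ribosomal protein genes, 33 of 35 oxidative phosphorylation subunits and 27 of 27 proteasome subunits lay at or above the 90th percentile, where 13.4% of all genes lay. Medians were 99.8 for ribosomal proteins, 98.5 for oxidative phosphorylation and 98.0 for the proteasome, and 55.0 over all genes.

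The control cells carried the mesenchymal pattern known for this line. VIM stood at percentile 99.97 in the USF1 controls and 99.95 in the UGT1A3 control. CDH2, N-cadherin, stood at 86.9 and 87.8, and the repressor ZEB1 at 91.4 and 83.4. LGALS1, the receptor tyrosine kinase AXL and the ectonucleotidase NT5E were all above percentile 98 in each set. E-cadherin, CDH1, was dim at 18.4 in the USF1 controls and 16.2 in the UGT1A3 control, and EPCAM was dim at 6.77 and 8.64. Not every epithelial gene was dim: the simple-epithelium keratin KRT18 stood at 98.9 and 99.4, and its partner KRT8 at 78.6 and 93.8. Of 28 measured epithelial genes 16 were dim (57.1%), against 6 of 28 mesenchymal genes (21.4%) and 37.1% of all genes.

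**Figure D1:**
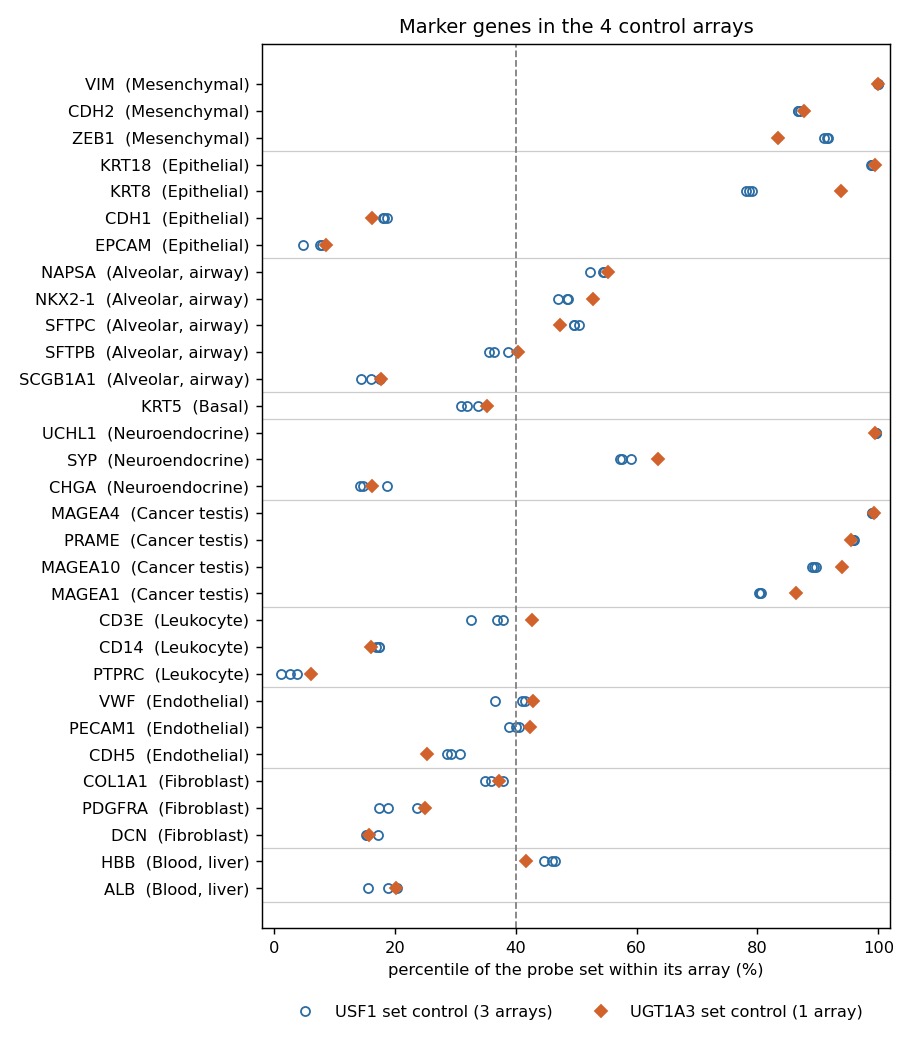
Percentile of each marker's probe set within its array (horizontal axis, in percent) for genes that define lineages, with the 3 USF1 controls as open circles and the UGT1A3 control as a diamond; the dashed line is the dim limit at 40. VIM, KRT18, UCHL1 and MAGEA4 lie at the right edge in all 4 arrays, CDH1 and EPCAM lie far below the limit, and KRT8 is the marker with the widest gap between the sets.

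Markers of the lung lining were not bright. The secretoglobin SCGB1A1 of club cells was dim at a mean of 16.9, and the surfactant gene SFTPB was at 36.9 in the USF1 controls and 40.3 in the UGT1A3 control. SFTPC read 49.9 and 47.4, NKX2-1 read 48.0 and 52.9, and the aspartic protease NAPSA read 53.7 and 55.3, all near the middle of the array. Of 24 alveolar and airway genes 17 were dim (70.8%, beside 37.1% of all genes), and 0 reached the 90th percentile (13.4% of all genes). The brightest were the lipid enzyme LPCAT1 at a mean of 80.6 and the lipid transporter ABCA3 at 76.0. Of 14 measured squamous and basal genes 10 were dim (71.4%, beside 37.1% of all genes). The squamous keratin KRT5 was dim at a mean of 33.7, whereas PERP stood at 92.0 and the basal keratin KRT15 at 72.8. TP63 was not analysed here. The surfactant genes SFTPA1 and SFTPA2 were dim, at means of 7.12 and 5.71. In these cells, labelled as lung, the median of the 24 genes was 31.1, beside 55.0 over all genes.

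Single genes of other lineages were bright in the same cells. Of 27 measured neuroendocrine and neuronal genes 13 were dim (48.1%, beside 37.1% of all genes), and the median was 42.8. In this list 2 genes reached the 90th percentile (7.41%, beside 13.4% of all genes). These were UCHL1 and TUBB3. UCHL1, a neuronal ubiquitin hydrolase, stood at 99.6 in the USF1 controls and 99.4 in the UGT1A3 control, and the neuronal tubulin TUBB3 at 96.3 and 96.0. The neuroendocrine granule gene CHGA was dim at a mean of 16.1, and synaptophysin, SYP, read 60.7. Among cancer testis genes, which are silent in most adult tissues, MAGEA4 stood at a mean of 99.2, PRAME at 95.7, MAGEA10 at 91.7 and MAGEA1 at 83.4. The list as a whole was not bright: 14 of its 21 measured members were dim (66.7%, beside 37.1% of all genes), and its median was 19.6. MAGE genes are close copies of each other, so these probe sets could share signal.

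Cell types that a cell line should not hold gave low readings. PTPRC, the pan-leukocyte phosphatase, was at 4.30 and the monocyte receptor CD14 at 16.6. The fibroblast proteoglycan DCN was at 15.8, the endothelial cadherin CDH5 at 27.5 and ALB of liver at 19.3. Some defining markers read higher, among them HBB at 43.7, VWF at 41.3 and CD3E at 39.3. Dim were 15 of 19 leukocyte genes (78.9%), 7 of 12 endothelial (58.3%), 10 of 12 fibroblast (83.3%) and 6 of 8 blood and liver genes (75%). Over all genes 37.1% were dim, and the endothelial share was close to the 57.1% of the epithelial list. At or above the 90th percentile were 0 of these lists' members, beside 13.4% of all genes. The brightest was CD68, a lysosomal protein that other cells also make, at 78.9. In bulk RNA of this kind, fewer cells of a type and less RNA per cell cannot be told apart.

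Growth control genes were spread widely. CDKN2A, a gene that many lung cancers delete, was bright at 98.6 in the USF1 controls and 98.8 in the UGT1A3 control. Cyclin D1, CCND1, was at 97.6 in both, CDK4 at 96.9 and 98.1, and MYC at 97.4 and 96.7. EGFR was moderate at 72.3 and 71.9. The receptor kinase gene RET was dim at a mean of 21.2 and ROS1 at 6.09. The median of the 33 measured driver genes was 72.0. Of the 43 measured mitosis genes, 32 lay at or above the 90th percentile (74.4%, beside 13.4% of all genes), with UBE2C at 98.9 and the cyclin CCNB1 at 98.4. Of 45 replication genes 20 did (44.4%), with MCM7 at 99.3 and TYMS at 99.2.

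The targeted genes were not bright in their own controls. USF1 read 6.08, 6.31 and 6.20 on the rank-matched log2 scale in the USF1 controls and 5.38 in the UGT1A3 control, which lay outside their range and under the 2-fold limit used below. Its mean percentile was 43.8, close to the dim limit. The 9 probe sets that carry UGT1A3 are shared with other UGT1A genes, so they were outside the 44988 probe sets ranked above. Ranked among all probe sets except array controls, they read between percentile 0.342 and 37.3 in the control arrays, under 40 in each case.

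The order of genes was closer within the USF1 set than between the sets. Among the 500 highest genes, 425 were shared by the USF1 controls and the UGT1A3 control, whereas single USF1 controls shared 489 to 491 with each other. Over 44988 probe sets the Spearman correlation was 0.998 between USF1 controls and 0.976 to 0.977 between a USF1 control and the UGT1A3 control. Of 11411 genes, 92.4% of the UGT1A3 readings lay outside the range of the 3 USF1 controls, because that range was narrow: its median was 0.08 and its maximum 0.66 on the rank-matched log2 scale. A gene was therefore counted as different only if the UGT1A3 control was outside the range and at least 2-fold from the mean. By this rule 146 genes (1.28%) were higher and 363 genes (3.18%) were lower in the UGT1A3 control. The typical size of a difference was small, with a median of 0.31 log2 units, and 5 higher and 17 lower genes reached 4-fold. At the edge of the rule, USP44 at 2.005-fold lower was counted and STK39 at 1.999-fold lower was not.

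**Figure D2:**
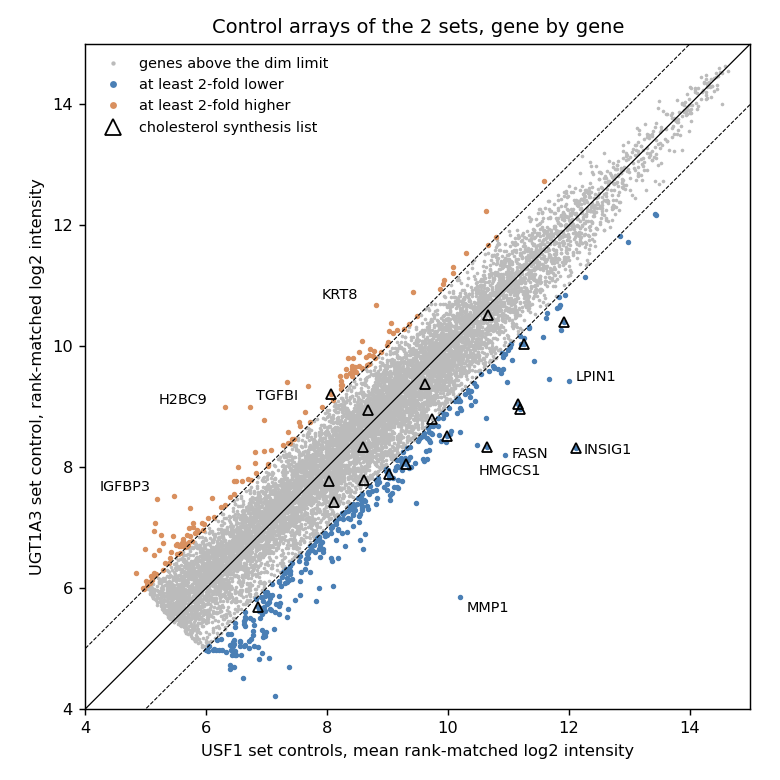
Rank-matched log2 intensity of 11411 genes in the UGT1A3 control (vertical axis) against the mean of the 3 USF1 controls (horizontal axis); the solid line marks equality, the dashed lines 2-fold, and triangles the cholesterol synthesis list. INSIG1, FASN, HMGCS1 and LPIN1 lie far below the line among bright genes, and H2BC9, TGFBI and IGFBP3 lie furthest above it.

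Cholesterol synthesis was the gene list that set the control sets apart most. Of its 26 genes 20 were measured and 19 were above the dim limit. In the UGT1A3 control 10 of the 19 were at least 2-fold lower and 1 was higher, where the background over all genes was 3.18% lower and 1.28% higher. The median difference of the 19 was -1.13 on the rank-matched log2 scale, beside 0.02 over all tested genes. The list's median level was 9.65, 9.62 and 9.59 in the USF1 controls and 8.51 in the UGT1A3 control, beside 8.51 to 8.52 and 8.46 over all tested genes. The other 6 genes of the list were not analysed here.

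INSIG1, which retains the SREBP and SCAP complex in the endoplasmic reticulum, had the largest difference of the list. It read 12.16, 12.10 and 12.11 in the USF1 controls and 8.32 in the UGT1A3 control, a difference of -3.81. Its 3 probe sets above the dim limit differed by -3.81 to -3.02. In percentiles the gene stood at 98.2 in the USF1 controls and 73.2 in the UGT1A3 control.

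The enzymes of the early pathway followed. HMGCS1, which makes HMG-CoA from acetyl units, read 10.65, 10.66 and 10.65 in the USF1 controls and 8.32 in the UGT1A3 control, a 5.02-fold difference. IDI1, which isomerises isopentenyl diphosphate, read 11.16, 11.10 and 11.19 against 9.05. FDPS, the farnesyl diphosphate synthase, read 11.91, 11.92 and 11.92 against 10.40. A reading outside the range of the USF1 controls was required by the rule that counted HMGCS1, IDI1 and FDPS as lower. The kinases and decarboxylase between these steps were not lower by 2-fold: MVK differed by -0.27, MVD by -0.26, and PMVK, the phosphomevalonate kinase, was 1.16 log2 units higher.

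The later, sterol-forming steps were lower in part. MSMO1, a demethylase of sterol intermediates, read 11.17, 11.18 and 11.21 in the USF1 controls and 8.96 in the UGT1A3 control. DHCR7, which completes cholesterol, read 9.99, 9.98 and 9.97 against 8.51. The squalene epoxidase SQLE differed by -1.22, the lanosterol synthase LSS by -1.24 and the ketosteroid reductase HSD17B7 by -1.17. STARD4, a carrier of cholesterol between membranes, differed by -1.13. Smaller differences were read for SC5D at -0.94, NSDHL at -0.24 and EBP at -0.14, and TM7SF2 read 0.27 higher. SREBF2, which encodes SREBP-2, read 8.56, 8.63 and 8.65 against 7.79, a difference of -0.82 that missed the 2-fold limit. SCAP, the escort, read 0.29 higher in the UGT1A3 control. ABCA1, the cholesterol efflux pump, differed by -0.68.

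**Figure D3:**
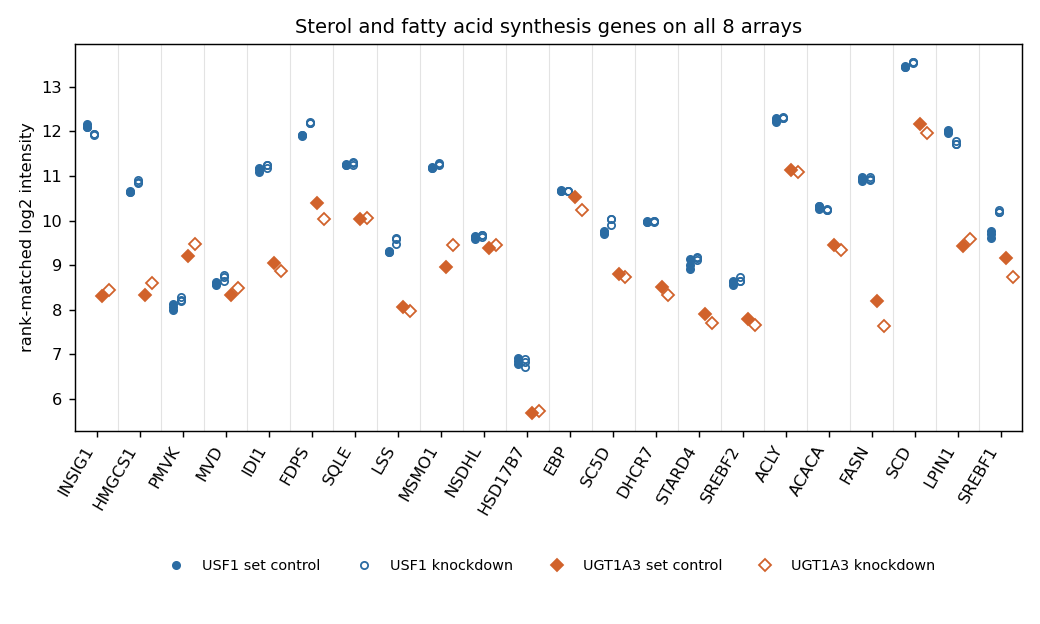
Rank-matched log2 intensity (vertical axis) of sterol and fatty acid synthesis genes on each of the 8 arrays, with circles for the USF1 set and diamonds for the UGT1A3 set, filled for controls and open for knockdowns. For INSIG1, HMGCS1, IDI1, FDPS, MSMO1 and FASN both UGT1A3 arrays lie well below all 6 USF1 arrays, PMVK lies above them, and NSDHL and EBP lie close.

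Promoters of most genes of the cholesterol list, lower or not, hold the letters CCAAT, the element bound by the factor NF-Y. This factor is known to work beside SREBP at sterol genes. The 190 bases before an annotated start are shown for 5 of the 10 lower genes, to let the position and number of the matches be seen. Sequences are from RefSeq (GRCh38.p14) and run 5′ to 3′ on the gene's strand, with CCAAT or its reverse complement ATTGG in capitals.
INSIG1, chr7:155297688-155297877, + strand: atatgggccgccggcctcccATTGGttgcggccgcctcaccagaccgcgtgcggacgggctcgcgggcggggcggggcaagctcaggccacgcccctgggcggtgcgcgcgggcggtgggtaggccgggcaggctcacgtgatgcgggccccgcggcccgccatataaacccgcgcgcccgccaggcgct
HMGCS1, chr5:43313413-43313602, - strand: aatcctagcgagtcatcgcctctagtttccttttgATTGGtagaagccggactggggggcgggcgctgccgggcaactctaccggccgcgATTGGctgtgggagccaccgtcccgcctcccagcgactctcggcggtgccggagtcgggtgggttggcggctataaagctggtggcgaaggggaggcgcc
FDPS, chr1:155308676-155308865, + strand: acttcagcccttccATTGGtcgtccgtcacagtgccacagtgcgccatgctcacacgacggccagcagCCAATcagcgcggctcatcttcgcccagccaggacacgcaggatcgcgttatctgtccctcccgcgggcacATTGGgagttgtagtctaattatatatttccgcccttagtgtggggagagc
MSMO1, chr4:165327479-165327668, + strand: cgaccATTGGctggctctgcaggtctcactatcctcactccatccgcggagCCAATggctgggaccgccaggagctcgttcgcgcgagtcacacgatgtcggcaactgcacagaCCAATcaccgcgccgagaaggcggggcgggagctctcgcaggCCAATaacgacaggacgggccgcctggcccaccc
DHCR7, chr11:71448394-71448583, - strand: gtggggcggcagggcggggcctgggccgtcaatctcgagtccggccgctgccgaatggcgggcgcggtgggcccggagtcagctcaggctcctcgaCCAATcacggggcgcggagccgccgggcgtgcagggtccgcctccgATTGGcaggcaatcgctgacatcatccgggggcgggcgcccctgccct

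The windows hold 4 such matches in MSMO1, 3 in FDPS, 2 each in HMGCS1 and DHCR7 and 1 in INSIG1. Over the 250 bases before any listed start, on both strands, CCAAT occurred in 16 of 18 cholesterol genes above the dim limit that have a listed promoter (88.9%), in 41.8% of all such genes and in 32.0% of all 35116 listed promoters. It occurred in 9 of the 9 lower genes of the list that had a listed promoter. Most other members of the list held it too, so it did not set the lower genes apart within the list. HMGCS1 and DHCR7 each have a second listed start whose window holds 0 matches, as does 1 listed start of IDI1. Among fatty acid genes above the dim limit with a listed promoter, CCAAT occurred in 6 of 18 (33.3%). LPIN1, which was also lower, had 0 matches at each of its listed starts. Of the other lower fatty acid genes, ACLY had 2 matches at each listed start and SCD had 2, and FASN had no listed promoter. Over all 363 lower genes, of which 284 had a promoter, the share was 47.9%, and over the higher genes it was 42.4%. The letters TCACNCCAC, one form of the sterol regulatory element, were in 1 of the 18 cholesterol genes and in 0 of the 9 lower ones. They were in 1.19% of all genes above the dim limit with a listed promoter. Counted by single promoter, they were in 0.883% of all listed promoters, and shared a base with CCAAT in 4 promoters. A match is a description of letters and not a site of binding.

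Of the genes of fatty acid metabolism, 4 were lower and most differed little by the 1 probe set that represented each. Of 22 measured genes of fatty acid metabolism, all above the dim limit, 4 were at least 2-fold lower (background 3.18%) and 0 higher, with a median of -0.13. FASN, the fatty acid synthase, read 10.93, 10.99 and 10.89 in the USF1 controls and 8.20 in the UGT1A3 control, a 6.68-fold difference read by 1 probe set. LPIN1, a phosphatidate phosphatase of triglyceride synthesis, read between 11.97 and 12.02 in the USF1 controls and 9.43 in the UGT1A3 control. SCD, which desaturates stearate, read 13.44, 13.47 and 13.44 against 12.16, and its 4 probe sets ranged from -3.54 to -1.28. ACLY, which makes cytosolic acetyl-CoA, differed by -1.11. Lying outside the range of the USF1 controls was part of the rule that counted these 4 genes as lower. ACACA, the acetyl-CoA carboxylase, read 10.26, 10.33 and 10.34 against 9.45, a difference of -0.86 that missed the 2-fold limit. The desaturases FADS1 and FADS2 differed by 0.01 and 0.29, and the elongase ELOVL6 lay within the range of the USF1 controls. Other probe sets of these genes above the dim limit disagreed, reaching -1.03 for FADS1, -0.55 for FADS2 and -1.17 for ELOVL6. SREBF1 differed by -0.54, and 2 further lipid genes chosen after their values were seen were lower. PNPLA3, a lipid droplet hydrolase, differed by -1.68 and MID1IP1, an activator of fatty acid synthesis, by -1.65. Enzymes of fatty acid oxidation did not stand out, with HADHA at -0.23, although its 4 probe sets ranged from -1.45 to 0.59.

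The single largest difference was in MMP1, the interstitial collagenase. It read 10.17, 10.16 and 10.25 in the USF1 controls and 5.85 in the UGT1A3 control, which is from percentile 91.1 to 44.5. Both of its probe sets above the dim limit gave nearly the same value, -4.34 and -4.23. The other matrix genes showed no such gap: of 22 tested, MMP1 was the 1 gene at least 2-fold lower (background 3.18%) and 0 were higher, and PLAU, the urokinase, differed by -0.13.

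The remaining lower genes at the head of the ranking were of mixed kind. MAP3K21, a mixed-lineage kinase, read 7.21, 7.03 and 7.17 in the USF1 controls and 4.21 in the UGT1A3 control, where it was dim. TMEM170B differed by -2.67, INO80C, a chromatin remodelling subunit, by -2.22, the potassium channel KCNJ2 by -2.20 and the inositol transporter SLC5A3 by -2.11. WHAMMP3, TXNDC16 and MAP3K7CL lay between -2.10 and -2.06. Each of these had 1 probe set above the dim limit except MAP3K7CL, whose 4 ranged from -2.06 to -0.84.

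Genes of acute signalling were lower for some members. In the immediate early list 4 of 33 were lower (background 3.18%) and 0 higher, with a median of -0.23. EGR1, a zinc finger factor induced within minutes by growth signals, read 10.25, 10.16 and 10.17 in the USF1 controls and 8.58 in the UGT1A3 control. Its 6 probe sets ranged from -1.61 to -0.25. HBEGF, a ligand of EGFR, read 9.88, 9.87 and 9.88 against 8.43. KLF4 differed by -1.09 and the ERK phosphatase DUSP5 by -1.03, whereas FOS differed by 0.25 and MYC by -0.27. In the NF-kB and cytokine list 3 of 16 were lower (background 3.18%) and 0 higher, namely NFKBIZ at -1.35, the chemokine CXCL2 at -1.28 and the feedback inhibitor TNFAIP3 at -1.27. CDKN1A, the p21 inhibitor, differed by -1.14.

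Integrins, the receptors for matrix, leaned lower. Their median over 10 genes was -0.44, and 8 of the 10 were below 0, as were 5540 of all 11411 genes. ITGA6, the laminin receptor chain, read 12.85, 12.83 and 12.85 in the USF1 controls and 11.82 in the UGT1A3 control. ITGA10 differed by -1.30, but its 2 probe sets disagreed, at -1.30 and 0.41. ITGB1, the common beta chain, differed by -0.42. Of the 10, 2 were at least 2-fold lower (background 3.18%) and 0 higher.

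Several genes of secreted proteins were among the 15 with the largest positive differences. TGFBI, a matrix protein induced by TGF-beta, read 6.67, 6.81 and 6.69 in the USF1 controls and 8.99 in the UGT1A3 control, and its 4 probe sets ranged from 2.27 to 2.91. IGFBP3, which binds insulin-like growth factors, read 5.19, 5.18 and 5.20 against 7.48, and was dim in the USF1 controls. IGFBP6 of the same family read 7.26, 7.37 and 7.38 against 9.41. LGALS3BP was 2.05 log2 units higher, and SERPINH1, the collagen chaperone, read 8.59, 8.56 and 8.59 against 10.08. The collagen gene COL1A1 was dim in both sets, while COL6A2 was 0.67 higher and COL12A1 differed by -0.69.

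The keratin genes KRT8 and KRT7 were higher in the UGT1A3 control. KRT8 read 8.76, 8.86 and 8.80 in the USF1 controls and 10.67 in the UGT1A3 control, a 3.64-fold difference seen by all 8 of its probe sets, from 1.18 to 2.49. KRT7 read 5.12, 5.25 and 5.03 against 6.95 and was dim in the USF1 controls, and the desmosomal plakophilin PKP3 was 1.12 higher. These were the 3 of 12 epithelial genes above the dim limit that were higher (background 1.28%), and 0 were lower. Another desmosomal gene, DSP, went the other way by -1.70, from percentile 50.0 to 29.5. It was not counted, because its mean percentile of 39.7 lay just under the dim limit. Other keratins did not share that size: KRT18 was 0.61 higher, KRT5, KRT14 and KRT19 were dim, and KRT15, a basal keratin, read 8.75, 8.88 and 8.76 against 7.80, just inside 2-fold on the lower side. CDH1 and EPCAM were dim in both sets, and CDH2 differed by 0.10.

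Histone genes were higher as a group. All 11 members above the dim limit lay above 0 with a median of 0.65, and 2 of the 11, H4C8 and H3C8, were at least 2-fold higher (background 1.28%). H2BC9, outside the list, had the largest positive difference among the 11411 genes. It read 6.36, 6.27 and 6.30 in the USF1 controls, lay 2.69 above their mean in the UGT1A3 control, and stood at percentile 49.7 and 80.7 in the 2 sets. Its 3 probe sets above the dim limit ranged from 2.31 to 2.69. Histone genes of 1 type are nearly identical in sequence, so single members are uncertain. The brightest members, H4C3 and H2BC12, differed by 0.14 and 0.04.

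Replication genes also read higher, by less. Of 45 members 38 lay above 0, as did 5871 of all 11411 genes, and the median was 0.30. At least 2-fold higher were 4 (background 1.28%): UNG, which removes uracil from DNA, by 1.32, CDC45 of the replicative helicase by 1.15, CHAF1B by 1.13 and MCM5 by 1.07. CDC45 read 8.69, 8.77 and 8.64 in the USF1 controls and 9.85 in the UGT1A3 control. Of 43 mitosis genes 2 were higher (background 1.28%), CCNA2 at 1.25 and NUSAP1 at 1.12, but each had another probe set near 0, at 0.07 and 0.06.

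Few genes of the interferon response passed the 2-fold limit. The median of 27 was 0.31, 1 was at least 2-fold higher (background 1.28%) and 1 lower (background 3.18%). IFITM1 read 5.78, 5.71 and 5.56 in the USF1 controls and 6.88 in the UGT1A3 control, and IFITM3 differed by 0.93. RIGI, a sensor of viral RNA, differed by -1.03, with probe sets from -1.03 to -0.08. Outside that list, PSMB8, a subunit of the immunoproteasome and the 1 higher gene of 14 of MHC class I presentation, read 8.29, 8.30 and 8.35 against 9.50. UBE2L6, an enzyme that conjugates ISG15 and also outside the list, stood at percentile 57.1 in the USF1 controls and 78.3 in the UGT1A3 control, a difference of 1.81 by 1 probe set.

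Genes of neurotrophin signalling, the pathway the study's title names, leaned lower by a small size. Their median over 28 genes was -0.26, with 20 below 0, as were 5540 of all 11411 genes. Of the 28, 1 gene, PLCG1, was at least 2-fold lower, a share near the background of 3.18%. Of 10 measured UDP-glycosyltransferase genes outside the UGT1A locus 8 were dim (80%, beside 37.1% of all genes), and the median percentile of the 10 was 8.58.

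Other genes at the head of the higher ranking had no common role. They were CRIP1, a LIM domain protein, at 1.66, EDF1 at 1.60, TMSB15A at 1.59, TTC16 at 1.92 and the fatty acid amide hydrolase FAAH at 1.63. FAAH rested on 1 of its 2 probe sets, since the other differed by -0.02. ID1, an inhibitor of helix-loop-helix factors, was already at percentile 97.0 in the USF1 controls and was 1.15 higher in the UGT1A3 control. In the driver list TERT, the catalytic subunit of telomerase, was 1.13 higher and MYCN 1.04 higher, each by 1 probe set close to the dim limit, and CDKN2B differed by -1.53 with probe sets from -1.53 to 0.23.

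**Figure D4:**
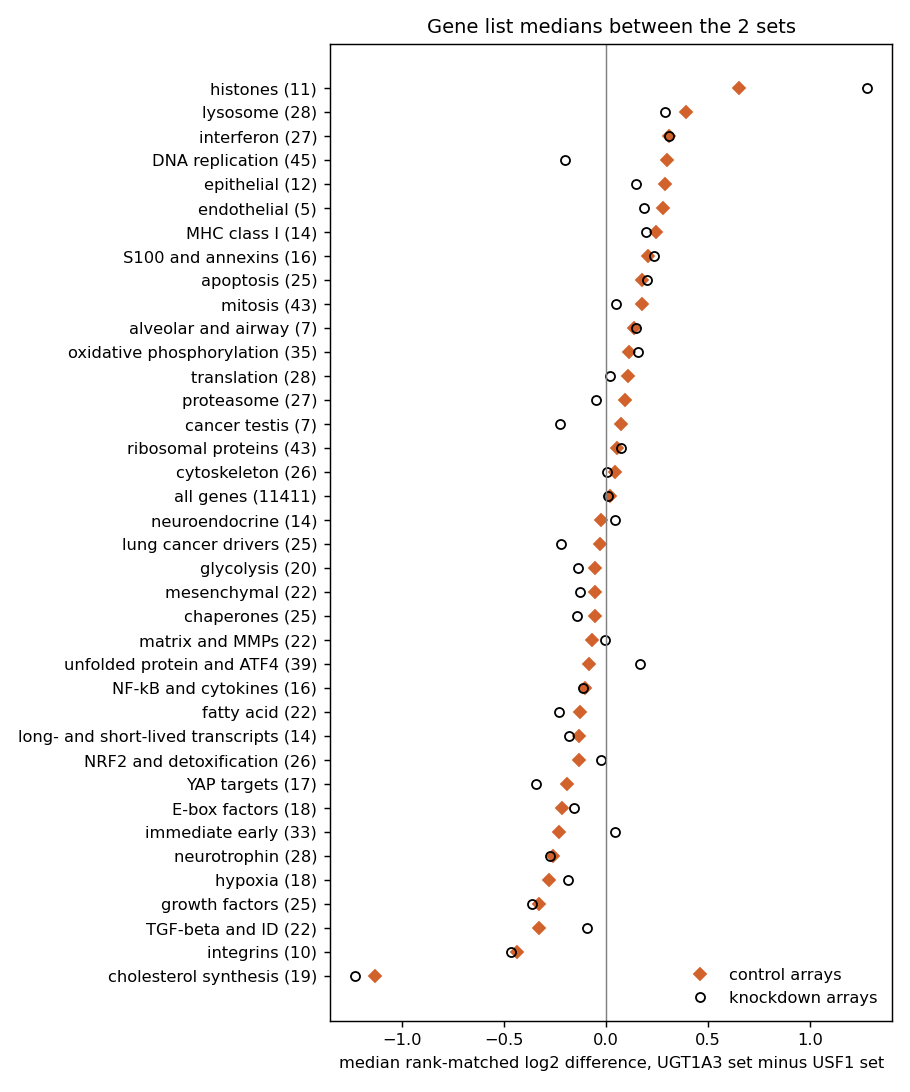
Median rank-matched log2 difference, UGT1A3 set minus USF1 set (horizontal axis), for most gene lists with at least 5 members above the dim limit, given in brackets; diamonds are the control arrays and circles the knockdown arrays of the same sets. Cholesterol synthesis lies at -1.13 and -1.23, apart from all other lists shown, and histones lie highest at 0.65 and 1.28.

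Genes were also read on the knockdown arrays, which share no array with the controls but carry a knockdown. Here 241 genes (2.11%) were at least 2-fold higher and 385 (3.37%) lower in the UGT1A3 knockdown than in the USF1 knockdowns. All 146 genes higher between the controls were above 0 between the knockdown arrays, 84 of them by 2-fold. Of the 363 lower genes 358 were below 0, 202 of them by 2-fold. Over all 11411 genes the direction was the same for 81.5%. INSIG1 read 11.93, 11.94 and 11.93 in the USF1 knockdowns and 8.44 in the UGT1A3 knockdown, and FASN read 10.98, 10.90 and 10.93 against 7.63. The cholesterol list had a median of -1.23 there, integrins -0.47 and histones 1.28. Replication genes had the other sign, with a median of -0.20 between the knockdown arrays, and the immediate early list read 0.04.

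**Figure D5:**
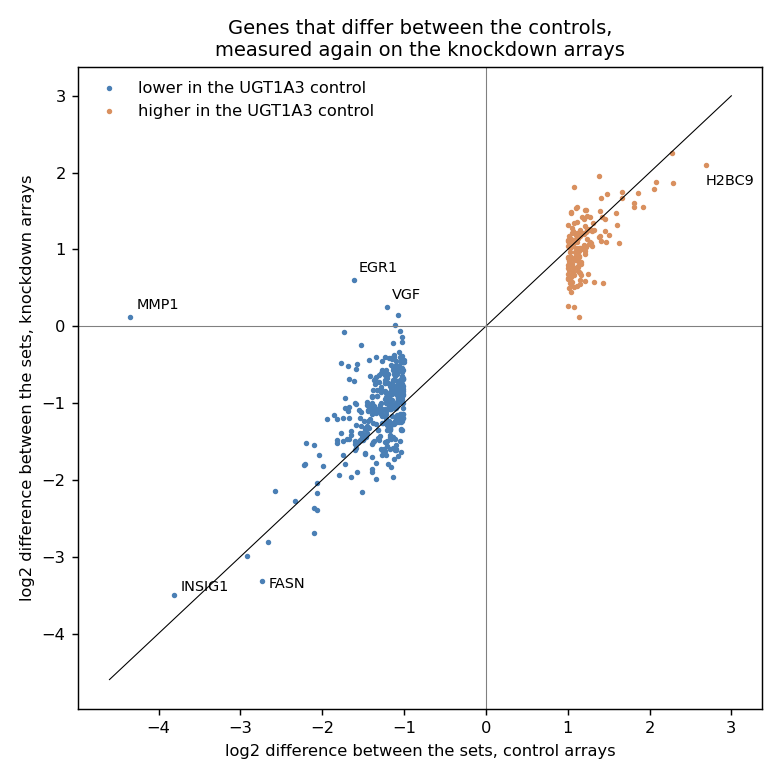
Log2 difference between the sets on the knockdown arrays (vertical axis) against the control arrays (horizontal axis) for the 509 genes at least 2-fold apart between the controls; the line marks equal differences. Nearly all points keep their side of 0, and MMP1, EGR1 and VGF are lower between the controls and above 0 between the knockdowns.

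MMP1 was the clearest exception. It read 8.52, 8.44 and 8.52 in the USF1 knockdowns and 8.61 in the UGT1A3 knockdown, so that the gap of the controls was absent there. EGR1 read 9.36, 9.39 and 9.36 against 9.97, which is higher in the UGT1A3 set.

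Several technical readings moved with the sets. The 3 prime minus 5 prime difference of the ACTB control probe sets was 0.62, 0.57 and 0.61 in the USF1 controls and 0.34 in the UGT1A3 control, and that of GAPDH was -0.05, -0.05 and -0.01 against -0.14. The 12 labelling spikes, set against each array's median, were a median of 1.24 log2 units higher in the UGT1A3 control, and all 12 were above 0, while the 9 hybridization spikes differed by 0.10. The lower genes were long, with a median genomic span of 61.8 kb, against 29.0 kb over all tested genes and 12.7 kb for the higher genes. Among the lists, integrins were at 68.5 kb, neurotrophin signalling at 77.3 kb, cholesterol synthesis at 20.6 kb and histones at 0.52 kb. Of the lower genes with at least 2 probe sets above the dim limit, 175 of 230 had all of them below 0, and of the higher genes 56 of 65 had all above 0. All were at least 2-fold apart in 45 of the 230 and 19 of the 65. The part of these readings in the differences was not tested, and the set, its handling and its array scaling cannot be told apart from the cells.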

How the data were processed

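The authors deposited 1 table of log2 intensities for 49395 probe sets and 8 arrays. The submitters' processing notes list MAS5, with no role, version or scaling, and log base 2 was read from the values. Of the probe sets, 102 were controls, 1832 carried several symbols and 2473 none, and these were left out of the ranking of genes. Names came from the platform annotation, updated by Entrez number for 44961 probe sets.

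Percentiles, rank matching and counts were computed with Python 3.11.15, pandas and numpy. The calling rule was run on simulated arrays with known 4-fold shifts and little noise. That run cannot show how the rule performs near 2-fold or where probe sets disagree. Named genes were the 20 brightest, up to 15 per direction with the largest difference, up to 4 brightest and 4 most different members of each of 43 lists, the targeted genes and lineage markers. Not all are printed. Further members of the lipid lists and SCAP, PNPLA3, MID1IP1, VGF, PKP3, DSP, SFTPA1, SFTPA2 and single keratins were added after their values were seen. The members and lists were chosen with earlier results of these data known. Of 1182 listed genes 1068 were measured. Alternatives were another scaling, fold, dim limit and choice of probe sets, 16 added intensity units, and each USF1 control left out. Some genes of the lists are not reported here.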

Additional observations from a re-analysis of the deposited data

Results flagged for a closer look

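Among the 509 genes at least 2-fold apart between the controls, there were 4 in which the difference between the sets had one sign on the control arrays and the other on the knockdown arrays, with the UGT1A3 array outside the USF1 range both times. These differences between conditions were not tested. MMP1 was -4.34 between the controls and 0.12 between the knockdowns, and EGR1 was -1.61 and 0.60. VGF, a secreted neuropeptide precursor, read 10.42, 10.37 and 10.29 in the USF1 controls and 9.16 in the UGT1A3 control, and differed by 0.25 between the knockdowns. SPIRE1, an actin nucleator, read 10.14, 10.16 and 10.18 against 9.09, and differed by 0.14 between the knockdowns. Between the controls, the probe sets of SPIRE1 ranged from -1.18 to -0.40 and those of EGR1 from -1.61 to -0.25.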

How the results depend on the processing

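The counts of higher and lower genes were 146 and 363. They became 1112 and 1418 at 1.5-fold, 79 and 228 with the dim limit at percentile 60, and 498 and 1010 with every probe set counted on its own. They were 234 and 475 with no dim limit, 82 and 271 with 16 intensity units added, and 129 and 442 with median centring. With the mean of all probe sets they were 98 and 178, of which 73 and 137 were among the 146 and 363. Leaving out 1 USF1 control gave 134 to 148 higher and 357 to 369 lower genes, and 423 to 424 shared genes of 500. Lists of 200 and 2000 genes shared 176 and 1737. The cholesterol median of -1.13 was -1.17 with the mean of all probe sets and -1.18 to -1.07 without 1 control, and 9 to 13 of its genes were lower under the settings run. Of 43 list medians, 5 took the other sign under some setting: the cancer testis, glycolysis, matrix, mesenchymal and YAP target lists. The cause was not tested. The 47 genes recomputed kept their sign under median centring, the mean of all probe sets and each control left out. They were the most different genes, the cholesterol genes above the dim limit, FASN, SCD, ACLY and LPIN1. Many were picked for a large difference, so a kept sign says little for them. Of their 235 values, 68 moved by more than the standard deviation of the USF1 controls. FADS1, outside them, went from 0.01 to -0.07 under median centring. No paired analysis was possible because the UGT1A3 set has 1 control. With 1 array on that side and no detection calls, differences near the dim limit have little support.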

Other observations

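Of 25 growth factor and receptor genes above the dim limit, 18 were below 0 and 7 above, with a median of -0.33. Over all 11411 genes, 5540 were below 0. In the UGT1A3 control 3 were at least 2-fold higher (1.28% over all genes), IGFBP3, IGFBP6 and the EGFR ligand TGFA, and 3 were lower (3.18% over all genes). TGFA read 7.35, 7.40 and 7.40 in the USF1 controls and 8.39 in the UGT1A3 control. The lower genes were HBEGF, another EGFR ligand, the insulin receptor INSR and the oncostatin M receptor OSMR. INSR read 6.98, 6.90 and 6.78 against 5.66, and OSMR read 7.34, 7.44 and 7.39 against 6.28. Between the knockdown arrays INSR differed by -0.92 and OSMR by -1.07.

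Single members of other lists were also apart. The circadian factor CLOCK differed by -1.04. The phospholipase PLCG1 differed by -1.15, with probe sets from -1.15 to -0.12. PDK1, a kinase that restrains pyruvate entry into mitochondria, read 7.93, 7.89 and 7.84 in the USF1 controls and 6.67 in the UGT1A3 control, and AJUBA, a LIM domain scaffold, read 8.67, 8.60 and 8.67 against 9.81. The glutathione transferase GSTM3 was 1.11 higher and S100A2 1.20 higher. Lysosomal genes leaned higher, 22 of 28 above 0 with a median of 0.39, beside 5871 of all 11411 genes above 0. Of the lysosomal genes 0 reached 2-fold in either direction (1.28% higher and 3.18% lower over all genes).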
